A study of Mus musculus with 12 samples.

Results

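The regions described here are stretches of open chromatin that gained a peak with the receptor mutant CSF3R T618I in cells carrying a non-targeting guide. With a guide against Asxl1 in its place, they had a peak in at most 1 of 3 libraries with T618I. Peaks of all 12 libraries on chromosomes 2 to 19 were merged where they overlapped by at least 1 bp, which gave 48531 regions. Kept were regions with a peak in all 3 sgNT/T618I libraries, in none of the 3 sgNT/Empty libraries and in at most 1 of the 3 sgB2/T618I libraries. These were 434 regions, or 0.894% of all merged regions. Presence of a peak in those 9 libraries chose the regions, so the levels in the 3 groups are given as a description without a test. The 3 sgB2/Empty libraries took no part in the choice except through the merging of peaks. Merged without them, the regions numbered 435.

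The assay was ATAC-seq, which uses a transposase to tag DNA that is open to it. The mouse HoxB8 line used consists of immortalised bone marrow progenitors that grow in stem cell factor and estrogen. Estrogen had been withdrawn for 48 h in every library, a step that lets such progenitors mature. The 4 groups had 3 libraries each. sgNT/Empty carried a non-targeting guide and the empty vector pMICH-Empty, and sgB2/Empty the Asxl1 guide B2 and the same empty vector. sgNT/T618I carried the non-targeting guide and the vector pMICH-CSF3R-T618I, and sgB2/T618I the Asxl1 guide B2 and that vector. The guide was meant to truncate Asxl1. The cut site, the promoter driving the receptor, and whether the cells were clones or pools are not given in the sources used here, nor is whether replicates were separate cultures. A p-value therefore speaks only for these libraries.

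CSF3R is the receptor for granulocyte colony-stimulating factor, which signals through JAK kinases and STAT factors and drives progenitors to become neutrophils. The T618I form signals without its ligand and is known from chronic neutrophilic leukaemia, where ASXL1 truncations often accompany it. ASXL1 is the partner of the deubiquitinase BAP1, which removes ubiquitin from histone H2A, a mark that Polycomb complexes place on silent chromatin. Neutrophils are known to switch on their genes in waves, with primary granule proteins first, secondary and tertiary granule proteins next, and receptors for bacterial products and complement late.

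The lists held between 18604 and 33152 peaks per library and carried no read counts, so sequencing depth is unknown. A region without a peak may still hold open chromatin that the authors' peak caller did not list, and in bulk cells fewer cells with an open region cannot be told apart from less opening in each cell. Peaks lay within 1 kb of a gene end of 7 of 9 granulocyte-monocyte progenitor markers, Spi1, Cebpa and Mpo among them, in all 12 libraries. The elastase gene Elane had one in 1 library and Cd34 in 10. None of 4 T cell and none of 4 epithelial markers had one in any library. Of the markers of other cells, Klf1 had a peak in 12 libraries, Col1a1 in 11, Ebf1 in 10 and Cd79a in 6, while the other members of those lists had none. Ebf1 had one in 1 of 3 sgB2/T618I libraries and all 3 of each other group, and Cd79a in 3 sgNT/T618I, 2 sgB2/T618I, 1 sgNT/Empty and 0 sgB2/Empty libraries. The part of other cells in the results was not tested. The ends of Asxl1 and Csf3r had a peak in all 12 libraries, which does not show a small edit or the vector's own copy.

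Of the 434 regions, 32 overlapped a RefSeq promoter window, taken from 250 bases before to 50 after a transcription start (GRCm38.p6, which has the coordinates of mm10). Shown here, 5′ to 3′, are the bases before the start of the genes among the regions named by the rule whose window lies outside the gene itself. Retnlg is a resistin-like protein secreted by granulocytes (chr16:48872358-48872607, plus strand, inside the region). Il1f9 is an interleukin of the interleukin 1 family (chr2:24186226-24186475, plus strand, of which 237 of 250 bases are in the region). Ceacam10 belongs to the carcinoembryonic antigen family (chr7:24776917-24777166, plus strand, inside the region). Capitals mark matches to the motifs listed next.
Retnlg: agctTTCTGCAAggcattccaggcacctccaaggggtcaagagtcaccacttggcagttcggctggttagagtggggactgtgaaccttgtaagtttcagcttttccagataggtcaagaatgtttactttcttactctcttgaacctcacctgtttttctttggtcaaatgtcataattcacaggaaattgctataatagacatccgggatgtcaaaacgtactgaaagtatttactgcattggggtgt
Il1f9: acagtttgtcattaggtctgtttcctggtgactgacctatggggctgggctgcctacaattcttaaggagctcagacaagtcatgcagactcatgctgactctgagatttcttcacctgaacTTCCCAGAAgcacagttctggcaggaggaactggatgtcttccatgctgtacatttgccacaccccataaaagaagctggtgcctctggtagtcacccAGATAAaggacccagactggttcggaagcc
Ceacam10: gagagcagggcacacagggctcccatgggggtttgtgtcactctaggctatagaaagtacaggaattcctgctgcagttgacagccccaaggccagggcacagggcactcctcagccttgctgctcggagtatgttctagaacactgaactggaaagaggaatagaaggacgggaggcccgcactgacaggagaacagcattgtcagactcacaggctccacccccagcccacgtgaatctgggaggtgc

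The motifs searched on both strands were C/EBP (TTNNGNAA), PU.1 (GAGGAAGT), RUNX (TGTGGT), AP-1 (TGANTCA), STAT (TTCNNNGAA), NF-kB (GGGNNTTCC), AGATAA for GATA factors and an E-box (CAGCTG), with CTCF and MAF by longer patterns. Retnlg held a C/EBP match, TTCTGCAA, beginning 246 bases before the start. Il1f9 held a STAT match, TTCCCAGAA, 128 bases before and a GATA match 30 bases before. In Ceacam10 these letters did not occur. None of these matches overlapped another. Over the 36 windows that the 434 regions touched, 38.9% held the C/EBP letters, beside 40.4% of all 29351 windows. E-box letters were in 27.8% beside 16.2% of all windows, AP-1 letters in 16.7% beside 7.84%, RUNX letters in 16.7% beside 16.7% and GATA letters in 11.1% beside 11.1%. NF-kB letters were in 8.33% beside 5.97%, CTCF letters in 5.56% beside 3.5% and STAT letters in 2.78% beside 8.37%. The letters of PU.1 and MAF were in no window of the 36, beside 3.27% and 0.385% of all windows. Regions that met the rule except for a peak in 2 or 3 sgB2/T618I libraries, called retained below, touched 50 windows. Of these, 46% held C/EBP letters, 30% RUNX, 20% E-box, 16% AP-1, 12% STAT and 12% PU.1 letters. GATA letters were in 6%, NF-kB letters in 4%, and those of CTCF and MAF in 0%. With 36 windows, 1 window is worth 2.78%, and a match is a description and not a bound site.

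Regions opened by T618I in sgNT cells, with a peak in 3 of 3 sgNT/T618I and 0 of 3 sgNT/Empty libraries, numbered 1114 (2.3% of all regions). The 434 regions were 38.96% of these. The other 680, with a peak in 2 or 3 sgB2/T618I libraries, are called retained. By the number of sgB2/T618I libraries with a peak, 174 opened regions had none (15.6%), 260 had 1 (23.3%), 277 had 2 (24.9%) and 403 had all 3 (36.2%). The limit of the choice lies between those with 1 and those with 2. Regions with 1 library had a median width of 479.5 bp and those with 2 of 524 bp, beside 431 bp for none and 586 bp for 3. Their peaks in sgNT/T618I ranked at a median percentile of 27.6 with 1 library and 31.5 with 2, beside 25.5 for none and 35.6 for 3. The percentile ranks a peak by its −log10 q within the whole list of its own library, and 100 is the strongest. Lists differ in length, so percentiles are not compared between libraries. The medians of both measures rose step by step with the number of libraries, with no break at the limit. Width is that of the merged region, so peaks in more libraries can widen it by themselves.

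The single library that did hold a peak was mostly the same one. Of the 260 regions with 1 sgB2/T618I peak, 202 had it in replicate 2 (77.7%), 30 in replicate 1 and 28 in replicate 3. The list of sgB2/T618I replicate 2 was the longest of the 12, with 33152 peaks, against 25124 and 23830 in replicates 1 and 3. Among the 434, a peak was present in 6.91% for replicate 1, 46.5% for replicate 2 and 6.45% for replicate 3. The peaks in replicate 2 were low in its list, with a median percentile of 30.2 against 43.4 for its peaks at retained regions. In replicates 1 and 3 they stood at 13.4 and 14.4. Choosing the regions without replicate 2, with no peak in the other sgB2/T618I libraries, gave 375 regions.

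**Figure D1:**
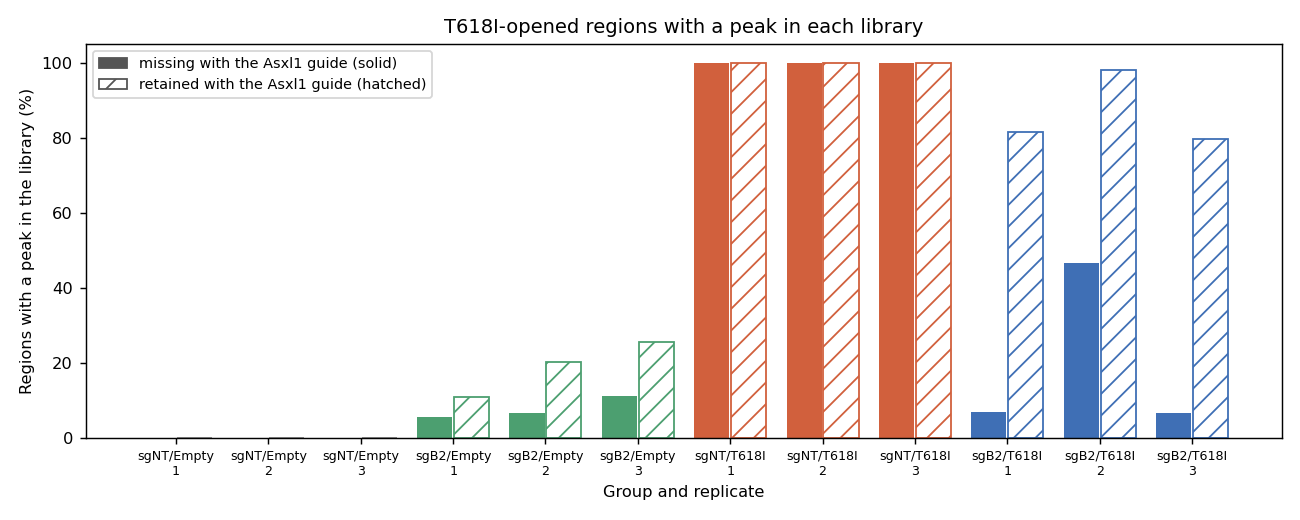
Share of T618I-opened regions with a peak (y axis, %) in each of the 12 libraries (x axis), for the 434 regions missing with the Asxl1 guide (solid) and the 680 retained (hatched). Levels in sgNT/Empty, sgNT/T618I and sgB2/T618I were set by the choice; sgB2/T618I replicate 2 stands at 46.5% of the missing regions, and the sgB2/Empty bars, not used by the choice, are lower for missing than for retained regions in each library.

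The choice was also read in libraries it had not used. With an sgB2/T618I library left out, no peak was allowed in the remaining ones of that group. The sgB2/T618I shares therefore come from a stricter choice than the others. For each of the 9 libraries the regions were chosen from the other 8, and the share with a peak in the library left out was taken (exact Clopper-Pearson 95% intervals, which cover counting error only). It was 63.0% (59.3 to 66.6), 47.2% (43.9 to 50.5) and 65.1% (61.3 to 68.7) in sgNT/T618I replicates 1 to 3. In sgNT/Empty it was 3.56% (2.05 to 5.71), 21.9% (18.6 to 25.6) and 35.4% (31.8 to 39.2). In sgB2/T618I it was 14.7% (10.1 to 20.3), 53.7% (48.5 to 58.8) and 13.9% (9.41 to 19.4). All 3 sgNT/T618I values were higher than all sgNT/Empty values, and higher than sgB2/T618I replicates 1 and 3. The value of sgB2/T618I replicate 2 lay inside the sgNT/T618I range, so these groups overlapped. Beside these stand the shares of all 48531 regions, which were 53.2%, 48.6% and 54.9% in sgNT/T618I, 34.4%, 49.3% and 55.3% in sgNT/Empty, and 45.3%, 59.1% and 42.9% in sgB2/T618I. In sgNT/T618I replicate 2 the share of the chosen regions was thus no higher than that of all regions.

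**Figure D2:**
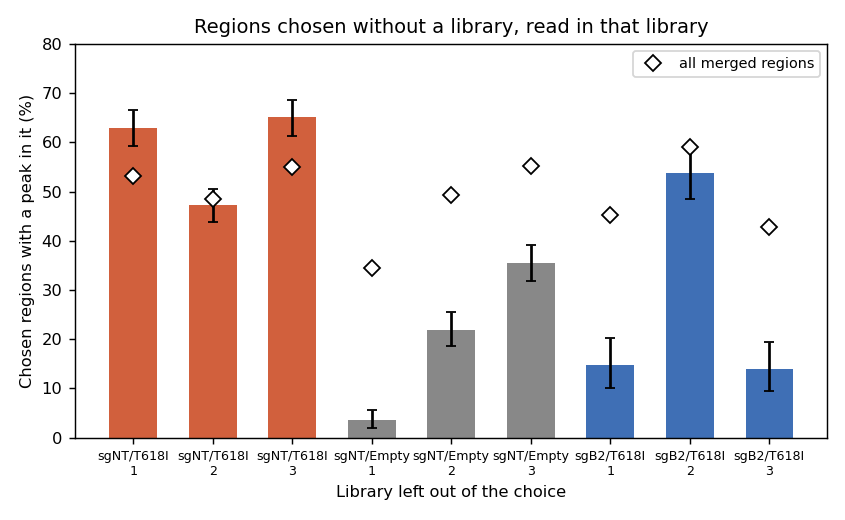
Share of regions with a peak in a library (y axis, %) when the regions were chosen without that library (x axis); bars give the share, error bars the exact 95% binomial interval, and open diamonds the share of all merged regions. The sgNT/T618I bars stand at 47.2 to 65.1% and the sgNT/Empty bars at 3.56 to 35.4%, while sgB2/T618I replicate 2 at 53.7% lies among the sgNT/T618I values. The sgB2/T618I bars come from a stricter choice, with no peak allowed in the remaining sgB2/T618I libraries.

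The guides were then swapped. T618I opened 1074 regions in sgB2 cells (2.21% of all), a number close to that in sgNT cells. Of these, 266 had a peak in at most 1 sgNT/T618I library (0.548% of all regions, 24.8% of the 1074), beside the 38.96% of the 1114 that had at most 1 with the Asxl1 guide. Opened in both backgrounds by the strict rule were 241 regions. When each list was first cut to its strongest 16837 peaks, the length of the shortest, the regions chosen were 230 and 32.95% of those opened, and 86 of them were among the 434. The swapped rule then gave 184. The order of the 2 numbers reversed without sgB2/T618I replicate 1 (204 against 659) and without replicate 3 (202 against 766), but not without replicate 2 (375 against 347). Equal list length thus changed the number and which regions were chosen, but the cut also removed the weaker peaks of longer lists. Without an sgB2/T618I library, the choice allowed no peak in the remaining ones, while the swapped rule asked for a peak in fewer. The part of list length in these numbers was not tested.

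The peaks that make up these regions were weak in the libraries that chose them. Their median percentile was 28.0, 24.5 and 31.1 in sgNT/T618I replicates 1 to 3. At retained regions it was 33.3, 29.7 and 38.1, and at all 19641 regions with a peak in all 3 sgNT/T618I libraries 62.2, 58.9 and 63.5. Averaged per region over the 3 libraries, the 434 had a median of 26.8 (middle part of the values 17.7 to 38.8, whole range 2.05 to 68.2). There were 195 regions under 25 (44.9%) and 45 above 50 (10.4%). The deposited fold of pileup over background had a median of 3.79 ± 0.19 (SD of the library medians, n = 3), beside 4.02 ± 0.19 at retained regions and 5.13 ± 0.24 at all 19641. Peaks were also narrow, at 304.5 ± 10.0 bp, against 352.8 ± 7.65 bp at retained regions and 580.7 ± 17.2 bp at all 19641.

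**Figure D3:**
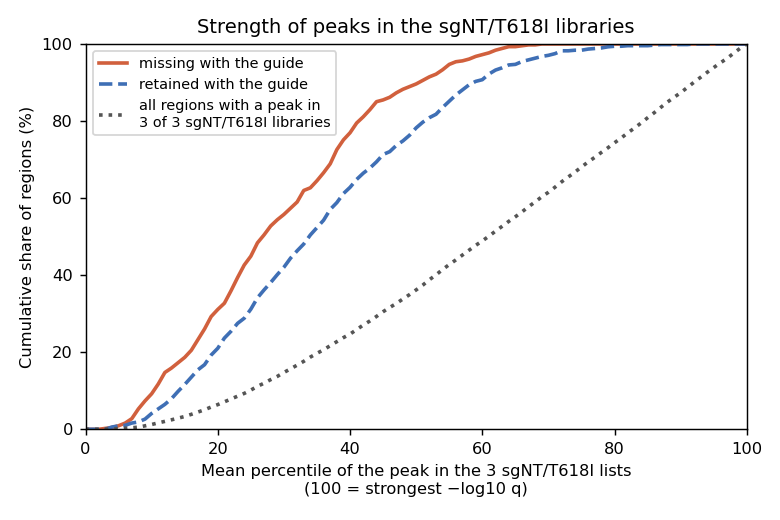
Cumulative share of regions (y axis, %) by the mean percentile of their peaks in the 3 sgNT/T618I lists (x axis, 100 = strongest −log10 q), for the missing regions, the retained regions and all regions with a peak in all 3 sgNT/T618I libraries. The curve of the missing regions lies to the left, with a median of 26.8 against 33.8 and 60.9.

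Strength and the missing peak went together among opened regions and elsewhere. Of opened regions with percentiles from 0 to 25, 195 of 407 were missing with the Asxl1 guide (47.9%). The share was 37.7% from 25 to 50 (194 of 514) and 24.7% from 50 to 75 (45 of 182), and all 11 opened regions above 75 were retained. Regions with a peak in all 3 sgNT/Empty libraries, read by the same limit in sgB2/T618I, were missing in 29.9%, 9.30%, 1.65% and 0.113% of cases over the same 4 ranges. Regions with a peak in any sgNT/Empty library, from 1 to 3 of them, were missing in 34.9%, 14.6%, 3.27% and 0.112%. In each of the 3 lower ranges, an opened region was thus more often without its sgB2/T618I peak than either set. The gap was smaller beside regions with any sgNT/Empty peak, at 47.9% against 34.9% from 0 to 25. All these sets were chosen on these libraries, so the gaps are a description. Of all 19641 regions, 1866 (9.5%, or 3.84% of all merged regions) had at most 1 sgB2/T618I peak. The 434 were 23.3% of them, while opened regions were 5.67% of the 19641.

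**Figure D4:**
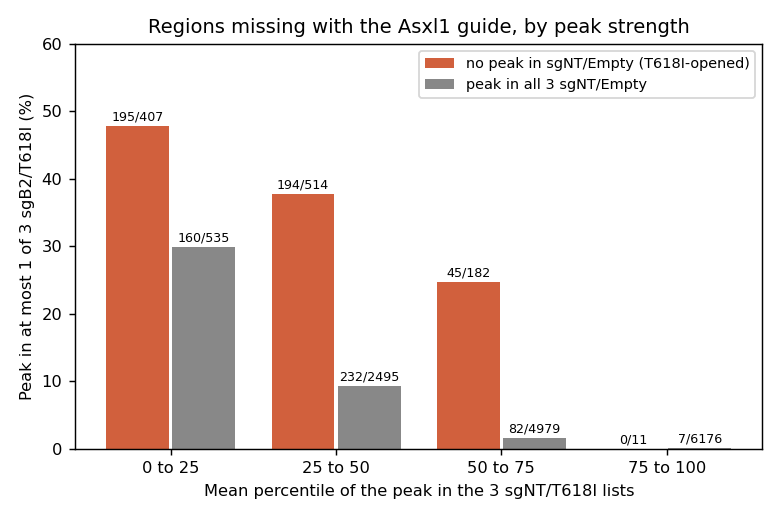
Share of regions with a peak in at most 1 sgB2/T618I library (y axis, %) by mean percentile in the sgNT/T618I lists (x axis), for T618I-opened regions and for regions with a peak in all 3 sgNT/Empty libraries; the numbers above the bars are missing over all regions of that bar. The share falls with strength in both sets, from 47.9% to 24.7% over the 3 lower bins of opened regions and from 29.9% to 1.65% in the others.

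The Asxl1 guide with the empty vector gave a measure that the choice had not used. A peak was present at 24 of the 434 regions (5.53%) in sgB2/Empty replicate 1, at 29 (6.68%) in replicate 2 and at 48 (11.1%) in replicate 3. At retained regions the shares were 10.7%, 20.3% and 25.4%. The mean was 7.76% ± 2.92 against 18.8% ± 7.46 (SD, n = 3), a difference of -11.1 percentage points (SD 5.09). It was lower at the missing regions in 3 of 3 libraries, with an exact two-sided sign-flip permutation p = 0.25, the smallest that 3 libraries allow. The difference was larger than its spread between libraries; with 3 libraries this test cannot give a lower p. Any sgB2/Empty peak was found at 74 of the 434 regions (17.1%, exact 95% interval 13.6 to 20.9), at 240 retained regions (35.3%) and at 57.1% of all merged regions. Missing and retained regions were chosen to have no sgNT/Empty peak and all merged regions were not, so the last share is not a like comparison. By the number of sgB2/T618I libraries the share with an sgB2/Empty peak went from 12.6% for 0 through 20% and 28.2% to 40.2% for 3.

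The order was the same within ranges of percentile. From percentile 25 to 50, sgB2/Empty replicates 1 to 3 had a peak at 5.15%, 7.73% and 12.9% of the 194 missing regions and at 11.9%, 18.4% and 24.1% of the 320 retained ones. From 50 to 75 the shares were 4.44%, 2.22% and 6.67% of 45 against 9.49%, 18.2% and 27.7% of 137. Under 25 they were 6.15%, 6.67% and 10.3% of 195 against 8.96%, 24.1% and 25.9% of 212. Within each of these ranges, the missing regions were lower in every sgB2/Empty library. The ranges are wide, and missing and retained regions were not matched by strength or width within them. Of the 434 regions, 152 (35.0%) had a peak in no library but the 3 sgNT/T618I ones.

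Most regions lay away from gene ends. Of the 434, 53 (12.2%) lay within 1 kb of either end of a protein-coding gene, 190 (43.8%) inside a gene, 136 (31.3%) within 50 kb of one and 55 (12.7%) farther off. The gene table gives spans without exons, so exon, intron and UTR are not stated. Of all merged regions, 21.5% lay at gene ends, 42.5% inside a gene, 24.9% within 50 kb of one and 11.2% farther off. Retained regions were at gene ends in 8.82%, regions of the swapped rule in 7.52% and all 19641 regions with a peak in all 3 sgNT/T618I libraries in 41.3%. The share of opened regions that were missing ran from 18.8% on chromosome 19 (9 of 48, 95% interval 8.95 to 32.6) to 50.9% on chromosome 6 (27 of 53, 36.8 to 64.9). Peaks of the other libraries seldom lay just beside a region. Within 500 bp of a region without its own peak, each of these lists had at most 1, and the median distance to the nearest peak ran from 7.17 to 12.2 kb. Around the regions, within 50 kb and outside them, peaks made up 6.01% ± 0.059 of covered bases in sgNT/T618I and 5.81% ± 0.092 in sgB2/T618I (SD, n = 3). The Empty groups had 5.39% ± 0.024 with sgNT and 5.27% ± 0.062 with sgB2. The ratio between the T618I groups was 1.03, and their libraries did not overlap (5.94 to 6.06% against 5.75 to 5.91%). Peaks in these T618I libraries chose the regions, so this gap is a description. The Empty groups did not overlap either (5.36 to 5.41% with sgNT against 5.23 to 5.34% with sgB2).

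Of the 19461 protein-coding genes on chromosomes 2 to 19, 876 (4.5%) had one of the 434 regions within 50 kb, 1341 (6.89%) a retained region and 432 (2.22%) a region of the swapped rule. Among 17 genes of mature neutrophils there were 7 with a missing region, namely Retnlg, Ccl6, Fpr1, Fpr2, Trem1, Ifitm1 and Ifitm2, which share regions in part. As many had a retained one. Secondary and tertiary granule genes had 4 of 19 with a missing region, Ltf, Lcn2, Cd177 and Ceacam10, and 8 with a retained one. The 11 primary granule genes had 0, and Mpo, Gfi1 and Serpinb1a lay near a retained region. The inflammatory list had 2 of 18 (Tnf and Fos), the JAK-STAT list 1 of 22 (Socs3), the stem and progenitor list 1 of 14 (Erg) and the Polycomb and ASXL-BAP1 list 1 of 18 (Asxl1). The 20 myeloid transcription factor genes, 17 monocyte, macrophage and dendritic genes, 12 mast cell, basophil and eosinophil genes, 15 lymphoid genes and 12 erythroid and megakaryocyte genes had 0. Over all lists, 16 of 190 genes (8.42%) had a missing region and 33 (17.4%) a retained one, beside 4.5% and 6.89% of all genes. Gfi1 is also on the transcription factor list, and differences between lists were not tested.

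Among receptors of mature neutrophils, a region at Fpr1, the receptor for bacterial formyl peptides, lay inside the gene 669 bp from its end (chr17:17882609-17883270) and 4.55 kb from Fpr2. Its percentiles were 44.0, 42.9 and 64.2 in sgNT/T618I, with 49.95 in sgB2/T618I replicate 2 and no peak in the other 8 libraries. C5ar1, the receptor for complement fragment C5a, had a region near each end. The one at chr7:16259096-16259417 stood at 49.9, 61.7 and 69.5 in sgNT/T618I and at 10.1 in sgB2/T618I replicate 2. The one at chr7:16246043-16246285, 458 bp outside the gene, stood at 58.3, 42.9 and 65.7, with 56.2 in sgB2/T618I replicate 2. Each of these 3 regions thus had its single sgB2/T618I peak in replicate 2 and none in an Empty library.

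Trem1, a receptor that amplifies neutrophil activation, had a region 16975 bp away (chr17:48215505-48215738) with percentiles of 24.8, 44.7 and 50.6 in sgNT/T618I and no peak elsewhere. A second, at the end of its relative Treml4 (chr17:48263671-48264297), stood at 39.0, 28.1 and 31.8. It also had peaks at 31.2 in sgB2/T618I replicate 2 and 13.1 in sgB2/Empty replicate 3. The region over the start of Retnlg (chr16:48871744-48872776), whose promoter is printed above, was 1033 bp wide. Its percentiles were 43.6, 40.3 and 37.9 in sgNT/T618I, with 45.2 in sgB2/T618I replicate 3. The Il1f9 region (chr2:24186212-24186462) stood at 59.9, 53.0 and 39.9, with 37.5 in sgB2/T618I replicate 2. Neither had a peak in any Empty library.

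Granule genes held both strong and weak regions. Cd177, a neutrophil surface glycoprotein, had one 807 bp outside its end (chr7:24761141-24761852), with percentiles of 57.0, 47.4 and 74.9 in sgNT/T618I and 45.1 in sgB2/T618I replicate 2. The region over the start of its neighbour Ceacam10 (chr7:24776828-24777287) stood at 22.1, 26.2 and 34.7, with 10.1 in sgB2/T618I replicate 3. Ltf encodes lactoferrin, an iron-binding protein of secondary granules. The region inside it (chr9:111033762-111034012) stood at 29.9, 20.03 and 43.5 in sgNT/T618I and had no peak in the other 9 libraries. For Lcn2, a lipocalin that binds bacterial siderophores, a region 22.7 kb away near Ciz1 (chr2:32361515-32361950) stood at 17.7, 18.4 and 45.7, also with no peak elsewhere. The Ltf and Lcn2 regions were no longer chosen with stricter peaks or equal-length lists. Of the other regions near listed genes, those at Ceacam10, Trem1, Socs3, Fos, Ccl9, Ifitm1 and Nol4l were also lost under both settings. The Retnlg, Erg, Treml4 and Ifitm3 regions were lost with equal-length lists but not with stricter peaks. Those at Fpr1, Cd177 and Nfkbil1 were kept under both.

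**Figure D5:**
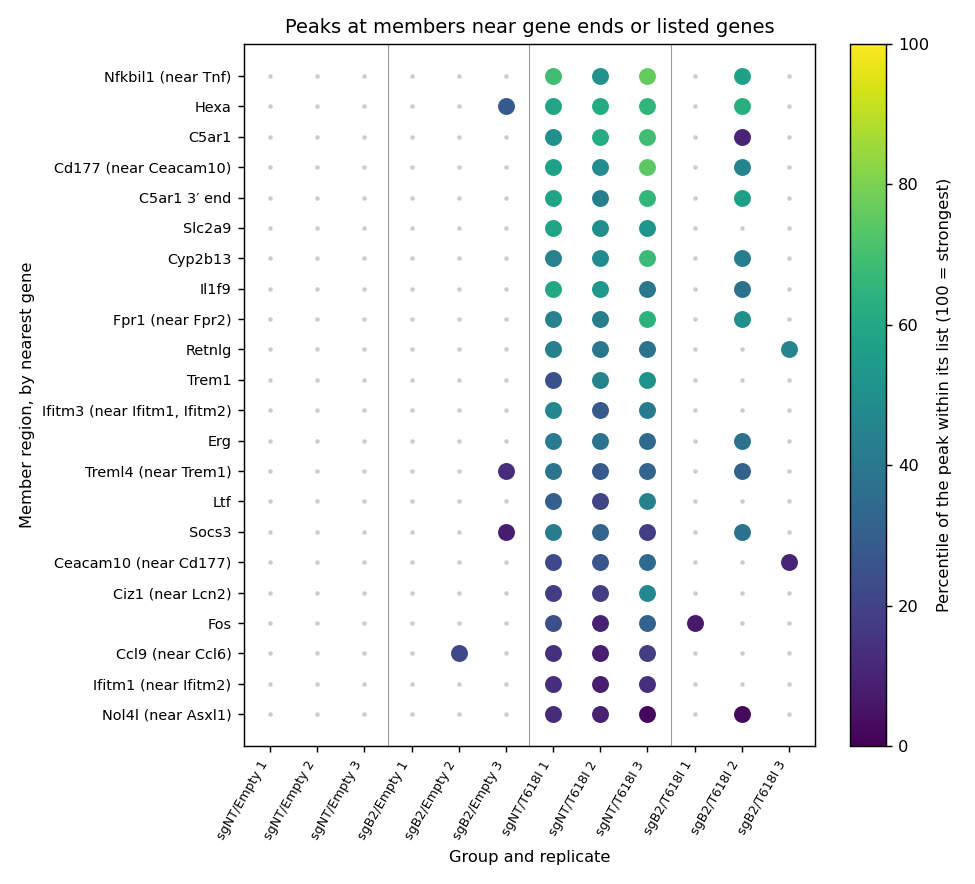
Peaks at missing regions near gene ends or listed genes (rows) in the 12 libraries (columns); colour gives the percentile of the peak within its list and a grey dot means no peak. All rows are filled in the 3 sgNT/T618I libraries by the choice; the sgB2/T618I peaks are mostly in replicate 2, and the rows range from Nfkbil1 (69.3, 50.2, 76.3) to Nol4l (12.2, 9.32, 2.09).

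The strongest region near a listed gene lay inside Nfkbil1, 29.1 kb from Tnf, the inflammatory cytokine gene (chr17:35231071-35231337). It stood at 69.3, 50.2 and 76.3 in sgNT/T618I, with 56.4 in sgB2/T618I replicate 2. Socs3, a feedback inhibitor of receptors that use JAK kinases, had a region 7.6 kb away (chr11:117958173-117958479) at 41.6, 31.8 and 17.9. Peaks there also stood at 37.6 in sgB2/T618I replicate 2 and 8.04 in sgB2/Empty replicate 3. Near Fos, a subunit of AP-1, a region 1.28 kb from the gene (chr12:85472245-85472612) stood at 23.9, 9.25 and 30.9, with 6.38 in sgB2/T618I replicate 1. Inside Erg, a transcription factor of stem cells, a region (chr16:95408104-95408328) stood at 41.1, 37.98 and 33.9, with 36.8 in sgB2/T618I replicate 2. The region counted for Asxl1 lay 10.8 kb from it inside Nol4l (chr2:153414772-153416079) and was among the weakest, at 12.2, 9.32 and 2.09, with 2.59 in sgB2/T618I replicate 2. A region between Ifitm1 and Ifitm3, genes of interferon-induced membrane proteins (chr7:141004524-141004923), stood at 46.8, 27.8 and 40.9 with no peak elsewhere. Also of the mature neutrophil list, and weak, were the regions at Ifitm1 (chr7:140971276-140971616; 13.0, 8.30 and 13.7) and at Ccl9, 9.26 kb from its fellow chemokine gene Ccl6 (chr11:83578313-83578628; 14.0, 8.44 and 17.8). The Ccl9 region also had a peak at 21.8 in sgB2/Empty replicate 2.

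Of the regions with no peak in any sgB2/T618I library, the strongest lay inside Celf2, an RNA-binding splicing factor (chr2:7076197-7076390). It was 194 bp wide and stood at 68.9, 68.8 and 66.9 in sgNT/T618I, with a deposited fold of 7.23, 6.96 and 7.097. Next came a region 25.2 kb from Ccr1, a receptor for inflammatory chemokines (chr9:123936684-123936971; 62.7, 65.7 and 69.7). Those nearest to the fatty acid elongation gene Hacd2 (9.37 kb away; 60.3, 53.1 and 76.6) and the transcription factor gene Zeb2 (733 kb away; 53.5, 58.8 and 76.8) followed. The remaining 6 by the rule lay inside Spatc1, Jam2 and Capza1 and at 553 kb from Mef2c, 307 kb from Dleu7 and 6.87 kb from Kif16b, with mean percentiles between 54.7 and 62.5. None of these 10 had a peak in any of the other 9 libraries. At gene ends the strongest regions not yet given were at Hexa, a lysosomal hexosaminidase gene (58.8, 61.1 and 65.4), at the urate transporter gene Slc2a9 (58.2, 49.9 and 52.1) and at Cyp2b13 (43.9, 47.7 and 67.7). The Slc2a9 region had no peak in the other 9 libraries. The Hexa region had 63.7 in sgB2/T618I replicate 2 and 28.2 in sgB2/Empty replicate 3, and the Cyp2b13 region had 42.8 in sgB2/T618I replicate 2.

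A peak in at least 2 sgB2/Empty libraries was found at 22 of the 434 regions (5.07%), beside 16.0% of retained regions and 39.6% of all merged regions. The strongest lay inside Myadm, a myeloid membrane protein gene (chr7:3290200-3290573). It stood at 41.1, 42.2 and 38.3 in the 3 sgB2/Empty libraries and at 44.8 in sgB2/T618I replicate 2. Its sgNT/T618I values were 49.6, 60.02 and 47.7. Inside Ago2, the microRNA effector, a region (chr15:73137252-73137668) stood at 9.26, 20.5 and 30.2 in sgB2/Empty and at 4.94 in sgB2/T618I replicate 1. Its sgNT/T618I values were 41.9, 35.6 and 34.5. The region 10.4 kb from the eosinophil cytokine gene Il5 (chr11:53735530-53736026) had 36.7 and 33.5 in sgB2/Empty replicates 2 and 3, and 41.6, 38.2 and 51.3 in sgNT/T618I. It also had 41.5 in sgB2/T618I replicate 3. Those inside Ralgds and Gnai2 and near Akr1b8 had mean sgNT/T618I percentiles of 39.3, 37.4 and 36.9. The Myadm and Ago2 regions had a peak in all 3 sgB2/Empty libraries and the other 4 in 2.

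Regions within 100 kb of each other formed 33 groups with 74 of the 434, and 360 stood alone. The largest group held 5 regions over 41.7 kb beside Zfp36l1, an RNA-binding protein that speeds mRNA decay (chr12:80041721-80083448). That stretch held no other opened region, and its ends are set by the group's own members. Their mean sgNT/T618I percentiles were 23.8, 47.2, 51.3, 42.2 and 21.4 in order along the chromosome, 2 had no sgB2/T618I peak and 3 had 1. None had a peak in sgB2/Empty. There were 5 groups of 3 regions. Of these, the one named spanned 31.9 kb in Spatc1 and Oplah (chr15:76287732-76319674), with mean percentiles of 62.5, 22.3 and 38.6. Neighbouring regions may share their source, and the groups were not tested.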

How the data were processed

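ATAC-seq peaks of 12 libraries in 4 groups were analysed. Per the submitters' processing notes, which name tools without their roles, BWA 0.7.17, SAMtools 1.9, bedtools 2.30, deepTools 3.5 and MACS2 2.2.7.1 were used on mm10. The authors deposited 1 broad peak list per library. In at least 99.96% of peaks of each list the score, as deposited, equalled 10 times the −log10 q as a whole number, and it was not used further. The deposited fold, a ratio of pileup over background, and the deposited −log10 p and −log10 q depend on depth and were used only to describe or rank peaks within a list. The weakest listed peak had a q of 0.0989. Replicate numbers only name libraries.

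Peaks were merged and counted with python 3.11.15, numpy 2.4.6 and pandas 2.3.3, intervals used scipy 1.17.1, and figures matplotlib 3.10.9. The procedure was tested on simulated data with planted regions. Genes and promoters were those of RefSeq (GRCm38.p6); regions are named by the nearest protein-coding gene. No genome sequence was used, so motif content of regions outside promoter windows was not analysed here. Named were the 10 strongest regions with no sgB2/T618I peak, 8 at gene ends, 6 with a peak in at least 2 sgB2/Empty libraries and up to 25 near listed genes. The largest group and 1 of 5 groups of equal size after it were also named. The regions, the 12 gene lists and the motifs were chosen with earlier results of these data known, so they are no independent support. Alternatives changed the peak threshold, list length, overlap, merging distance, libraries, gene end distance and gene window. No counts or reads were analysed here.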

Additional observations from a re-analysis of the deposited data

How the results depend on the processing

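The number of regions depended on how peaks were called and on single libraries. The 434 became 156 when sgNT/T618I peaks had to lie above the weakest 25% of their list, 230 in equal-length lists and 174 when no sgB2/T618I peak was allowed, and ranged from 202 to 920 with 1 library left out. The lowest came without sgB2/T618I replicate 3 and the highest without sgNT/T618I replicate 2. Stricter peaks in every library gave 341, of which 156 were among the 434, and 83 of the 434 were found under each of 6 other ways of calling and merging peaks. The share of opened regions, 38.96%, became 31.97%, 32.95% and 15.6% under the first 3 of these, and 18.1 to 49.8% with 1 library left out. The number under the swapped rule, 266, became 170 with stricter peaks, 58 with stricter peaks in the opened group only and 134 with none allowed, and 159 to 766 with 1 library left out, so that it was above the number of missing regions without sgB2/T618I replicate 1 or 3 and below it in every other setting run. The share with an sgB2/Empty peak, 17.1%, became 11.7% with stricter peaks and 12.6% with none allowed (10.6 to 25% with 1 library left out). The median percentile, 26.8, became 40.5 with stricter peaks, 42.4 with stricter peaks in the opened group only and 47.2 in equal-length lists (20.3 to 27.2 with 1 library left out). The gene end share became 9.22% at 500 bp and 18.4% at 2000 bp (9.24 to 13.4% with 1 library left out). The 876 genes became 365 with stricter peaks in the opened group only, 519 in equal-length lists, 383 with none allowed and 367 in a 10 kb window (441 to 1821 with 1 library left out). The ratio of surrounding coverage, 1.03, became 1.06 with stricter peaks and 1.06 in equal-length lists (1.01 to 1.06 with 1 library left out). The difference from retained regions in sgB2/Empty kept its sign in all 18 alternatives (-16.3 to -9.42 points). The cause of these shifts was not tested. No paired analysis was possible because no groups of libraries were compared by a fit, so replicate numbers could not be used as a block; the one test instead took the difference between 2 sets of regions within each library. Depth is unknown, and a weak peak can be missed in a shallow library.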
